A study of Mus musculus with 9 samples.

Results

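The 10 genes described here encode the best known proteins of muscle wasting: the ubiquitin ligases Fbxo32, Trim63 and Fbxo30, the transcription factors Foxo1, Foxo3 and Klf15, the translation repressor Eif4ebp1 and the calpains Capn1, Capn2 and Capn3. They were taken by gene symbol from the deposited counts, and all 10 were found among the 40879 symbols, of which 18619 were counted at least 1 time. All 10 also passed the filter on low counts that left 11980 genes for testing. None of the 10 passed the test between irradiated, cocultured and normal constructs, and for Fbxo32, Trim63, Fbxo30, Foxo1, Klf15 and Capn3 the libraries of at least 1 group lay more than 10-fold apart.

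The samples were engineered 3D muscle made of C2C12, an established line of mouse myoblasts able to form myotubes, set in matrix prepared from muscle tissue. Irradiated constructs (n = 3) had received 1 X-ray dose of 20 Gy to make their cells senescent, cocultured constructs (n = 3) were spared the X-rays and kept in 1 dish beside an irradiated construct, and normal constructs (n = 3) were neither irradiated nor exposed to irradiated ones. All groups were labelled wild type and were given 2 days of growth medium and 10 days of differentiation medium with 10% equine serum, and all come from this single cell line. The series text counts 2 irradiated and 2 normal samples and puts 2 constructs of a condition in a dish, while the labels describe 3 biological replicates a group, so p-values measure the spread between these libraries, which may share dishes.

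In an adult muscle fibre, insulin and IGF-1 signal through the kinase AKT, which keeps FoxO transcription factors out of the nucleus and, through the kinase complex mTORC1, phosphorylates the product of Eif4ebp1 so that it lets go of the cap-binding protein eIF4E and translation proceeds. When that signal is lost, or when glucocorticoids rise, FoxO factors and the glucocorticoid-induced factor Klf15 switch on Fbxo32 and Trim63, whose ligases mark muscle proteins for the proteasome. Calpains are calcium-activated cysteine proteases that cut selected proteins, including those that anchor the sarcomere. The calpains of Capn1 and Capn2 are held in check by calpastatin.

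Promoter windows from 250 bases before to 50 bases after a gene's start were available for 8 of the 10 genes, 10 windows in all (RefSeq, build GRCm38.p6, whose coordinates are not those of the builds named for the counts). No window was available for Fbxo32 and Eif4ebp1, so their promoters were not searched. The 10 windows were searched on both strands for the FoxO core GTAAACA, the insulin response element CAAAACA, the glucocorticoid response element (AGAACA and TGTTCT with NNN between them), its single arm AGAACA and the myogenic E-box CAGCTG. The windows of Trim63 and Capn3 held a match, and these are printed, with the matches in capitals, because both genes are known to be expressed mainly in muscle. The Trim63 window lies at chr4:134314870-134315169 on the + strand, and the Capn3 windows lie at chr2:120463343-120463642 and chr2:120476659-120476958, also on the + strand.
Trim63: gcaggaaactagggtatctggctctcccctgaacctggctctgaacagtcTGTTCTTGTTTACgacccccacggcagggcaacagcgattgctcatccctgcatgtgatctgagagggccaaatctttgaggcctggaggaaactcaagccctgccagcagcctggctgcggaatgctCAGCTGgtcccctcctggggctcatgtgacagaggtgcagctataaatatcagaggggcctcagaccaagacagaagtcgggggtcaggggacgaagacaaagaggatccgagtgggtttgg
Capn3, upstream start: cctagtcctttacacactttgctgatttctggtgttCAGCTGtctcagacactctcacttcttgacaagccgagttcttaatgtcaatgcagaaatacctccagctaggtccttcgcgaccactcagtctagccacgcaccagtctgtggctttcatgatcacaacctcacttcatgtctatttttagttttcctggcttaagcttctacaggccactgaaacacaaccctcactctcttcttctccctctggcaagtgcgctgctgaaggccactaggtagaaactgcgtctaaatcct
Capn3, downstream start: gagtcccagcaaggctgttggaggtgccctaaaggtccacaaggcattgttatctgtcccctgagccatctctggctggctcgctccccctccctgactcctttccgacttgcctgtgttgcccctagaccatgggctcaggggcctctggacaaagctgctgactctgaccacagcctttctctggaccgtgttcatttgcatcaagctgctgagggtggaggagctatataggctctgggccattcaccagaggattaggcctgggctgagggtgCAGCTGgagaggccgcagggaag
In Trim63 the reverse complement of the single glucocorticoid arm, TGTTCT, ran directly into that of the FoxO core, TGTTTAC, and the E-box CAGCTG stood nearer to the start. Directly before TGTTCT stood tgaacagtc, where the full glucocorticoid element has AGAACANNN. This stretch therefore differs from the full element in its first letter alone. Of 32851 promoter windows of the same length, 3.65% held the FoxO core, 19.0% the single arm and 16.3% this E-box, and 1, that of Trim63, held TGTTCT with TGTTTAC directly after it, a joined motif chosen after this window was seen. The search took exact matches only and did not count near matches such as that in Trim63. So searched, the full glucocorticoid element was found in 0.00913% of all windows and the insulin response element in 6.28%, and in none of the 10 windows. A match describes these letters and shows no binding.

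The libraries differed in depth and make-up before any of these genes is considered. Total counts were 6485655 to 8290468 in irradiated, 7506605 to 8035763 in cocultured and 4840993 to 6607557 in normal constructs. Irradiated 2 and irradiated 3 had counts for 8306 and 8654 genes, against 10002 to 14159 in the other 7. The 14 fixed muscle identity markers (Myod1, Myog, Des, Ckm, Acta1, Ttn and others) had counts in all libraries, except Myh8 in irradiated 2. Their summed level was 68660 CPM in irradiated 1 and 9432 and 9886 CPM in the other irradiated libraries, 5043 to 10932 CPM in cocultured libraries, and 109992 CPM in normal 3 against 5862 and 8171 CPM in the other normal libraries. Mitochondrially encoded genes took 29.7% of counts in normal 3 and 21.7% in irradiated 1, against 5.77% to 13.4% in the other 7 libraries. The RNA Gm26917 took 12.01% of counts in irradiated 1 and 4.76% and 5.28% in irradiated 2 and 3, 3.38% to 3.91% in cocultured libraries, and 23.9%, 27.4% and 9.47% in normal 1, 2 and 3. Normalised CPM here are counts per 1000000 of the library total after scaling by TMM factors. Because each transcript is counted at its 3' end, no correction for length was made.

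Markers of other cell types were low, apart from fibroblast markers, several of which C2C12 cells express. Summed levels of 8 macrophage markers were 0 to 22.4 CPM in irradiated, 0.113 to 7.24 CPM in cocultured and 8.01 to 47.9 CPM in normal libraries, with Ptprc at 0 in 8 of the 9 libraries. Of 8 endothelial markers the sums were 5.75 to 40.7, 0 to 8.04 and 2.05 to 31.5 CPM in the same order, and of 7 adipocyte markers 0 to 19.4, 0 to 7.61 and 4.11 to 111 CPM. The 7 Schwann and neural markers summed to 7.86 to 26.0, 21.8 to 27.6 and 42.9 to 84.1 CPM, and the 8 fibroblast markers to 7576 to 12282, 11518 to 15844 and 10390 to 17498 CPM. The 8 markers of cycling cells summed to 53.0 to 61.4 CPM in irradiated, 224 to 466 CPM in cocultured and 193 to 649 CPM in normal libraries. In bulk samples fewer cells of a type and less RNA per cell cannot be told apart.

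Fbxo32, known as atrogin-1, is the substrate-binding F-box subunit of a ligase induced in nearly every form of muscle wasting in rodents. It had 365, 57.2 and 15.6 CPM in irradiated constructs, 116, 102 and 197 CPM in cocultured constructs and 187, 140.4 and 389.7 CPM in normal constructs, in the order of replicates 1 to 3. The irradiated libraries held both a value near the top of the series and the 2 lowest, and they overlapped both other groups. Within groups its pooled SD was 1.41 on the log2 scale, against a median of 0.48 over 809 tested genes within 1.5 times its mean level, 97.5% of which varied less.

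The fitted difference of Fbxo32 was a log2 of -0.71 ± 0.81 (SE, approximate 95% interval -2.47 to 1.04) between irradiated and normal constructs and -0.79 ± 0.81 between cocultured and normal constructs. Between irradiated and cocultured constructs it was 0.08 ± 0.81, and -1.92 without irradiated 1. None passed in edgeR's quasi-likelihood test (adjusted p = 1 for each). The value for irradiated against normal constructs moved with single libraries in both directions. It was -2.71 without irradiated 1, with an edgeR adjusted p of 0.0747 (range 0.0747 to 1 over all alternatives), but -0.33 without irradiated 2, -0.181 without irradiated 3 and -0.179 without normal 3. Without irradiated 1 and normal 3, the libraries richest in muscle markers, it was -2.15 (edgeR adjusted p = 0.246). The difference between cocultured and normal constructs was -0.25 without normal 3. Counted per 1000 muscle identity counts, Fbxo32 stood at 5.32, 5.78 and 1.65 in irradiated, 10.7, 20.3 and 18.0 in cocultured and 31.9, 17.2 and 3.54 in normal libraries. The part of muscle content, or of the mitochondrial share that was highest in the same libraries, in these differences was not tested.

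Trim63, known as MuRF1, is a RING-finger ligase that sits on the sarcomere and marks thick-filament proteins. Its level was 180.4, 7.15 and 29.2 CPM in irradiated constructs, 25.6, 39.9 and 28.8 CPM in cocultured constructs and 15.0, 16.4 and 145 CPM in normal constructs. The highest values were those of irradiated 1 and normal 3, the libraries with the most muscle marker counts, while the 3 cocultured libraries lay within 1.56-fold of each other.

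The log2 difference of Trim63 was 0.30 ± 1.06 between irradiated and normal, -0.90 ± 1.07 between cocultured and normal and 1.20 ± 1.08 between irradiated and cocultured constructs, and none passed (edgeR adjusted p = 1, 1 and 0.900). Its sign turned when single libraries were left out, to -1.69 for irradiated against normal and -0.79 for irradiated against cocultured without irradiated 1, and to 1.001 for cocultured against normal without normal 3. The difference between cocultured and normal also turned when library totals served instead of TMM factors (0.036). Per 1000 muscle identity counts Trim63 stood at 2.63, 0.723 and 3.10 in irradiated, 2.36, 7.92 and 2.64 in cocultured and 2.56, 2.00 and 1.32 in normal libraries, so that irradiated 1 and normal 3 no longer lay above the others.

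**Figure D1:**
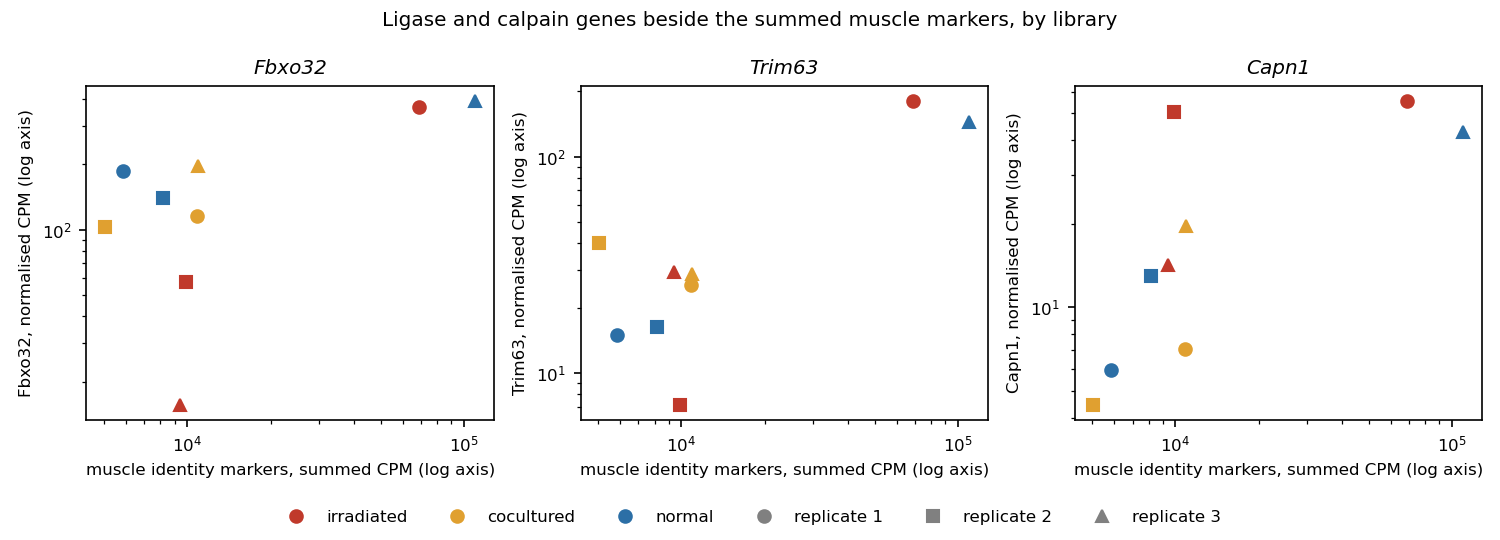
Normalised CPM of Fbxo32, Trim63 and Capn1 (vertical log axes) against the summed CPM of 14 muscle identity markers (horizontal log axis) in 9 libraries, coloured by group with a marker shape for each replicate. Irradiated 1 and normal 3 stand at the right with 68660 and 109992 CPM of markers and hold the 2 highest values of Trim63 and of Fbxo32.

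The ratio of Trim63 to Fbxo32 counts within a library was 0.494, 0.125 and 1.87 in irradiated, 0.221, 0.390 and 0.147 in cocultured and 0.0802, 0.117 and 0.372 in normal constructs. It was above 1 in irradiated 3 alone, and the irradiated libraries spanned the widest range.

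Fbxo30, also called MUSA1, is a further F-box ligase subunit of atrophying mouse muscle, where BMP signalling holds it down. It had 6.60, 47.1 and 39.1 CPM in irradiated constructs, 14.9, 45.2 and 0 CPM in cocultured constructs and 24.4, 17.3 and 0.547 CPM in normal constructs. Cocultured 3 had no count, which allows up to 0.339 CPM, and normal 3 had 2 counts. Of tested genes with a like level in the partner libraries, 6.65% had no count in cocultured 3 and 11.7% none in normal 3. The log2 difference was 1.13 ± 1.76 between irradiated and normal and 0.51 ± 1.75 between cocultured and normal constructs, intervals that reach from -2.68 to 4.94 and from -3.27 to 4.28. Between irradiated and cocultured constructs it was 0.63 ± 1.75. As each library was left out, the difference of Fbxo30 ranged from 0.58 (without normal 3) to 1.81 (without normal 1) between irradiated and normal constructs, and from 0.044 (without cocultured 3) to 2.05 (without cocultured 2) between irradiated and cocultured constructs.

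Foxo1 and Foxo3 encode the forkhead factors that drive the ligase genes. Foxo1 had 42.2, 32.3 and 111 CPM in irradiated constructs, 35.6, 31.6 and 0 CPM in cocultured constructs and 57.7, 45.4 and 38.6 CPM in normal constructs. The cocultured libraries lay below the normal ones, with cocultured 3 at no count where its partners had 332 and 306 counts. In cocultured 3, 5.35% of the 2597 tested genes of like level in its partners were at 0 as well. The log2 difference was -1.08 ± 1.26 between cocultured and normal constructs, and -0.49 without cocultured 3 (edgeR adjusted p = 1 for each). It was 0.39 ± 1.25 between irradiated and normal and 1.46 ± 1.27 between irradiated and cocultured constructs (edgeR adjusted p = 1 and 0.886), the second being 0.73 without irradiated 3 and 0.88 without cocultured 3.

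Foxo3 had 32.4, 35.8 and 103 CPM in irradiated constructs, 41.0, 30.1 and 45.0 CPM in cocultured constructs and 82.6, 57.5 and 32.8 CPM in normal constructs. Irradiated 3 was the highest library of the series for Foxo3 and for Foxo1, and the groups overlapped. The mean was 57.1 ± 40.0 CPM in irradiated and 57.6 ± 24.9 CPM in normal constructs (SD, n = 3 each), a log2 difference of -0.01 ± 0.65 that turned to 0.072 with DESeq2's size factors, with an interval from -1.42 to 1.40. It was -0.57 ± 0.66 between cocultured and normal and 0.56 ± 0.66 between irradiated and cocultured constructs. The ratio of Foxo1 to Foxo3 counts kept between 0.699 and 1.30 in the 8 libraries other than cocultured 3. Foxo3 varied less within groups than Foxo1, with a pooled SD of 0.68 against 2.38 on the log2 scale, where Foxo1 includes the count of 0.

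Klf15, which raises branched-chain amino acid breakdown in muscle, rested on 2 to 426 counts a library. It had 1.28, 40.1 and 7.04 CPM in irradiated constructs, 15.1, 3.00 and 0.226 CPM in cocultured constructs and 0.616, 1.59 and 21.6 CPM in normal constructs. Each group held 1 library far above its partners, namely irradiated 2, cocultured 1 and normal 3. Tested genes of its level varied as much, with a median pooled SD of 2.49 against its 2.41. The log2 difference of 1.02 ± 2.18 between irradiated and normal constructs was -0.92 without irradiated 2. It was -0.38 ± 2.16 between cocultured and normal and 1.40 ± 2.19 between irradiated and cocultured constructs.

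Eif4ebp1 encodes the repressor that blocks cap-dependent translation when mTORC1 does not phosphorylate it, and its gene is a known target of the stress factor ATF4. It had 49.2, 35.7 and 38.0 CPM in irradiated constructs, 131, 170.0 and 93.5 CPM in cocultured constructs and 68.4, 172 and 41.6 CPM in normal constructs. All irradiated libraries lay below all cocultured ones, while the normal libraries spanned both. The means were 41.0 ± 7.20 CPM in irradiated, 132 ± 38.3 CPM in cocultured and 94.1 ± 69.0 CPM in normal constructs (SD, n = 3 each).

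Between irradiated and cocultured constructs the log2 difference of Eif4ebp1 was -1.68 ± 0.54, with an interval from -2.85 to -0.52. It had the smallest p of the 10 members in any comparison, rank 189 among 11980 genes, and did not pass (edgeR adjusted p = 0.493, DESeq2 adjusted p = 0.128, limma voom adjusted p = 0.128). The value stayed between -1.88 and -1.46 as each library was left out. Between irradiated and normal constructs it was -1.20 ± 0.53 (edgeR adjusted p = 0.482), and -0.43 without normal 2, the library with the highest Eif4ebp1. Between cocultured and normal constructs it was 0.48 ± 0.52, and 1.26 without normal 2 (edgeR adjusted p = 1 for each).

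Capn1 and Capn2 encode the catalytic subunits of the widespread calpains, which pair with the small subunit Capns1. Capn2 had 51.3, 141 and 100.2 CPM in irradiated constructs, 138, 91.8 and 139.7 CPM in cocultured constructs and 60.0, 71.1 and 38.0 CPM in normal constructs. Every cocultured library lay above every normal one, and the irradiated libraries spanned both. The log2 difference was 1.13 ± 0.47 between cocultured and normal constructs (interval 0.11 to 2.14, edgeR adjusted p = 1, rank 259 of 11980) and 0.79 ± 0.47 between irradiated and normal constructs (interval -0.22 to 1.80, edgeR adjusted p = 0.676). The difference between cocultured and normal constructs ranged from 0.91 to 1.33 as each library was left out. Between irradiated and normal constructs it was 0.43 without irradiated 2. Between irradiated and cocultured constructs it was -0.34 ± 0.47, ranging from -0.70 without irradiated 2 to -0.030 without irradiated 1.

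Capn1 had 55.4, 50.8 and 14.2 CPM in irradiated constructs, 7.07, 4.45 and 19.7 CPM in cocultured constructs and 5.96, 13.0 and 43.0 CPM in normal constructs. Normal 3 and irradiated 1 were again among the 3 highest libraries. Capn1 differed by a log2 of 1.95 ± 1.20 between irradiated and cocultured constructs (interval -0.65 to 4.54, edgeR adjusted p = 0.645), by 0.96 ± 1.17 between irradiated and normal and by -0.99 ± 1.17 between cocultured and normal constructs. Without normal 3 the difference from normal constructs was 2.09 for irradiated and 0.13 for cocultured constructs, and without normal 1 it was 0.55 for irradiated constructs. The ratio of Capn2 to Capn1 counts was 0.927, 2.77 and 7.06 in irradiated, 19.5, 20.7 and 7.10 in cocultured and 10.1, 5.49 and 0.885 in normal libraries, and it was under 1 in irradiated 1 and normal 3 alone.

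Capn3 encodes the muscle calpain that binds titin, and its loss in people causes a limb-girdle muscular dystrophy. It had 95.4, 40.8 and 37.1 CPM in irradiated constructs, 36.1, 0 and 19.7 CPM in cocultured constructs and 1.23, 24.5 and 36.1 CPM in normal constructs. The lowest irradiated library lay just above the highest cocultured and the highest normal one. Per 1000 muscle identity counts Capn3 stood at 1.39, 4.13 and 3.93 in irradiated and 3.33, 0 and 1.80 in cocultured libraries. In normal libraries it stood at 0.210, 3.00 and 0.328, so on this scale the irradiated libraries overlapped both other groups. Cocultured 2 had no count, which allows up to 0.310 CPM, and 1.52% of 2560 tested genes of like level in its partners were also at 0 there. The log2 difference was 1.49 ± 1.52 between irradiated and normal and 1.63 ± 1.53 between irradiated and cocultured constructs (edgeR adjusted p = 1 and 0.917), and -0.15 ± 1.49 between cocultured and normal constructs. As each library was left out, these values ranged from 0.92 (without irradiated 1) to 2.17 (without normal 3) for irradiated against normal and from 1.05 (without cocultured 2) to 2.55 (without cocultured 1) for irradiated against cocultured constructs, and limma voom gave 3.83 for irradiated against cocultured constructs.

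In the GENCODE M21 annotation Capn3 overlaps Ganc and Foxo1 overlaps Gm38034 on the same strand. On the opposite strand Fbxo32 overlaps Gm15943, Foxo1 overlaps Gm20402, Capn1 overlaps Gm10814 and Capn2 overlaps Gm37885 and Gm37069. The handling of reads in overlaps is unknown, and so is the strand setting, which bears on the opposite-strand pairs. Reads of each of these genes may therefore have been left out or shared with its partner. Trim63, Fbxo30, Foxo3, Klf15 and Eif4ebp1 have no overlapping gene in that annotation.

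**Figure D2:**
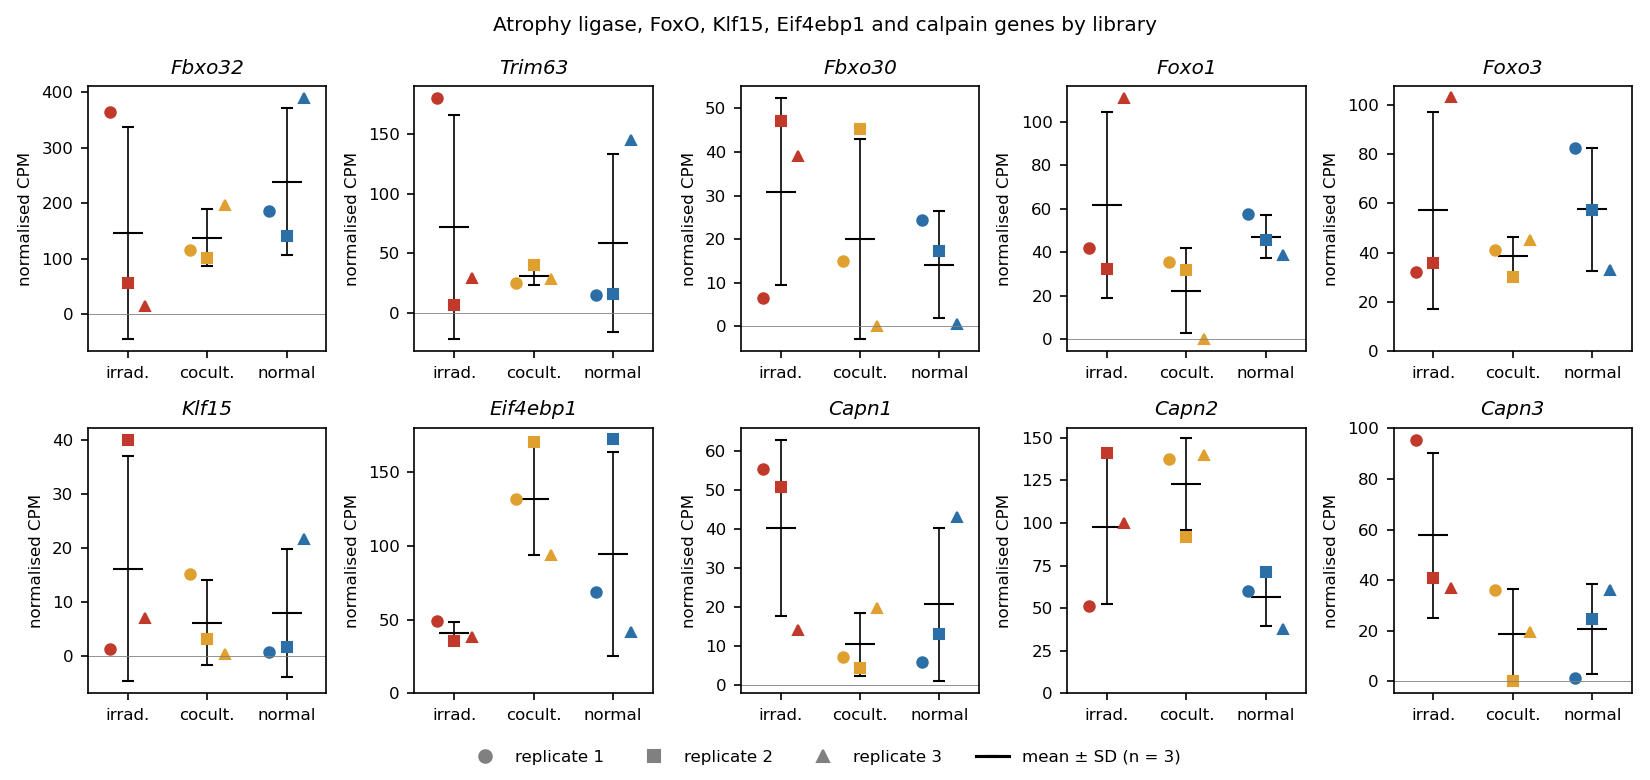
Normalised CPM of the 10 genes (vertical axes) in irradiated, cocultured and normal constructs, with a point for each library and the mean ± SD of 3 libraries. Irradiated Eif4ebp1 lies at 35.7 to 49.2 CPM, below the cocultured libraries, cocultured Capn2 lies above the normal libraries, and irradiated Fbxo32 and Trim63 each span more than 20-fold.

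Fbxo32, Trim63, Fbxo30, Foxo1 and Capn3 varied more between libraries of a group than most genes of their level, while Foxo3, Capn1 and Capn2 varied less than most. Among tested genes within 1.5 times its mean level, Trim63 (pooled SD 1.72) varied more than 81.8%, Foxo1 than 85.4%, Fbxo30 (2.86) than 89.1% and Capn3 (2.68) than 92.5%. Capn2, with a pooled SD of 0.54, varied more than 36.9%, Foxo3 than 30.2%, Capn1 (1.20) than 28.1% and Eif4ebp1 (0.66) than 52.7%.

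**Figure D3:**
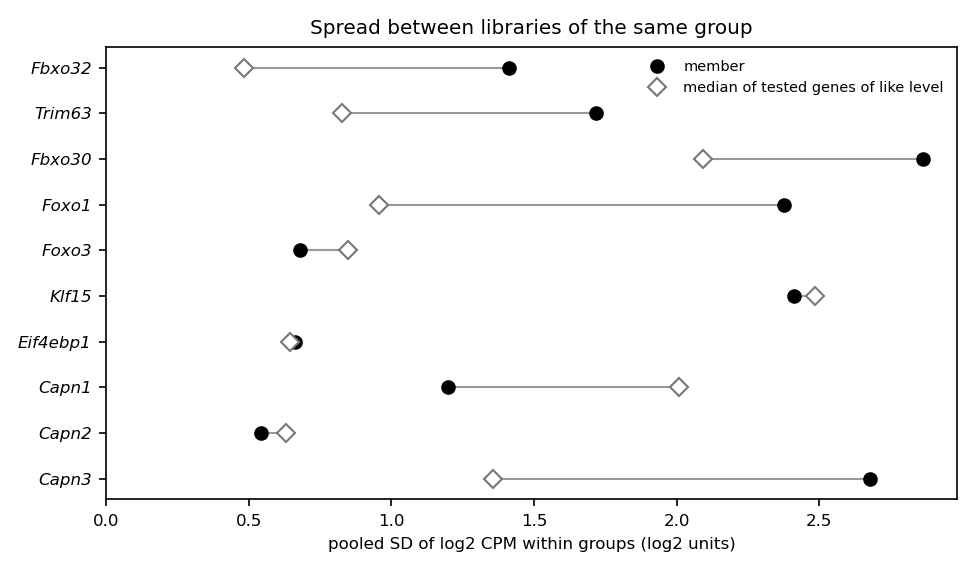
Pooled SD of log2 CPM within groups (horizontal axis, log2 units) for each of the 10 genes (filled circles) and the median of tested genes within 1.5 times its level (open diamonds). Fbxo32 lies at 1.41 against 0.48, while Capn2 lies at 0.54, below its median.

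Across all 11980 tested genes edgeR called 0.0584% between irradiated and normal, 0% between cocultured and normal and 0.0334% between irradiated and cocultured constructs, and 0 of the 10 members in each. DESeq2 and limma voom also called 0 members in each comparison. DESeq2 called 3.98%, 1.08% and 4.62% of the 11440 genes to which it gave an adjusted p, and limma voom 0.209%, 0% and 0.876% of 11980. At an unadjusted p under 0.05 in edgeR there was 1 member in each comparison, Eif4ebp1, Capn2 and again Eif4ebp1, where 10.3%, 4.11% and 9.58% of all tested genes stood.

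Groups did not overlap for 1 member between irradiated and normal constructs (Capn3 higher), for 2 between cocultured and normal (Capn2 higher, Foxo1 lower) and for 2 between irradiated and cocultured (Capn3 higher, Eif4ebp1 lower). Among all tested genes the shares were 15.7% between irradiated and normal (3.94% higher, 11.8% lower), 13.2% between cocultured and normal (5.66% higher, 7.51% lower) and 14.5% between irradiated and cocultured constructs (3.9% higher, 10.6% lower), so the members' counts stood near the background. Each pair of comparisons shares the libraries of a group, so their values are not independent. The members' median log2 was 0.59 between irradiated and normal, -0.47 between cocultured and normal and 0.91 between irradiated and cocultured constructs, against -0.21, -0.07 and -0.10 over all tested genes. Of the 10, 7, 3 and 8 had positive values, where 41.8%, 46.9% and 46.7% of tested genes did.

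**Figure D4:**
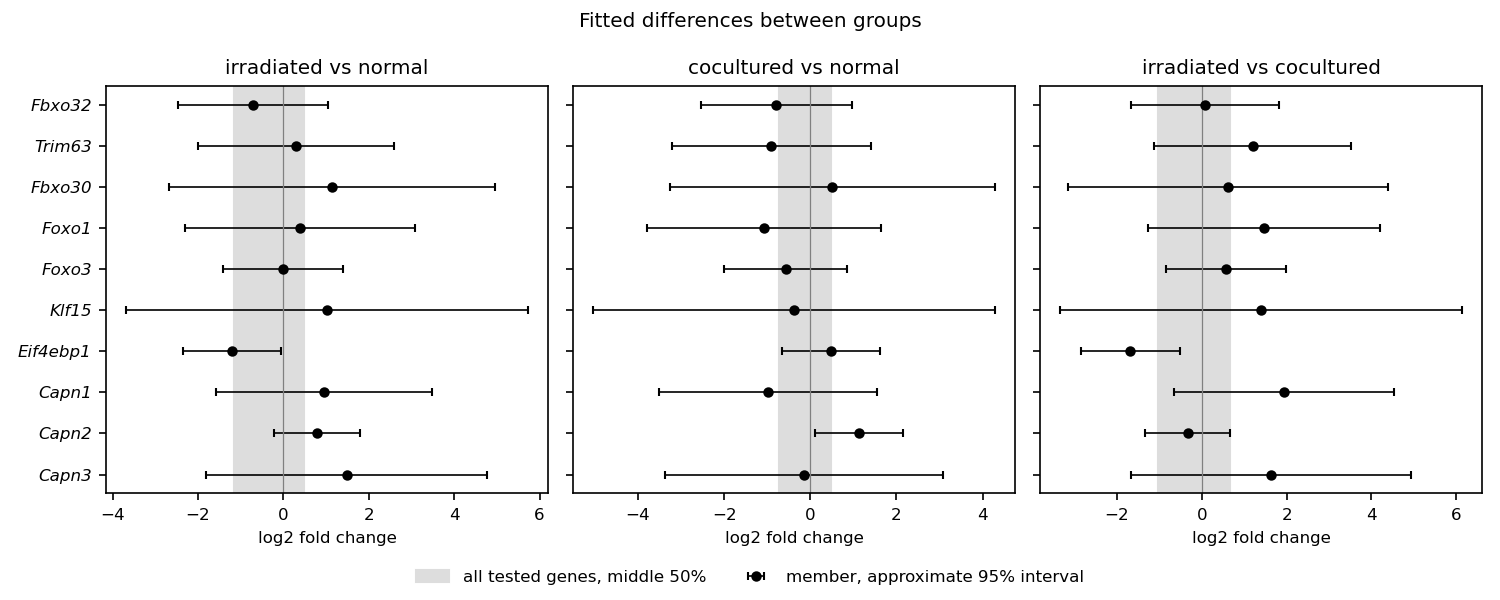
Fitted log2 fold changes of the 10 genes (points) with approximate 95% intervals (bars) for irradiated against normal, cocultured against normal and irradiated against cocultured constructs, with the middle 50% of all tested genes shaded. Intervals exclude 0 for Eif4ebp1 in both panels with irradiated constructs on top and for Capn2 in the panel of cocultured against normal constructs, and none of the 10 passed after adjustment over all genes.

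Other genes of these pathways were described from 7 lists of ligases, FoxO regulators, FoxO targets, glucocorticoid response, mTORC1 and translation, ATF4 targets and calpains. No member of any list passed in edgeR in any comparison, and the counts at an unadjusted p under 0.05 are given for each list. Over all tested genes 10.3%, 4.11% and 9.58% stood at an unadjusted p under 0.05, 41.8%, 46.9% and 46.7% had positive values and the median log2 was -0.21, -0.07 and -0.10, for irradiated against normal, cocultured against normal and irradiated against cocultured constructs. With 7 to 24 genes tested in a list, nothing particular to a list is read from its counts.

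Of 22 other muscle ubiquitin ligases tested, 8 had positive values between irradiated and normal constructs (median log2 -0.21), 8 between cocultured and normal (-0.26) and 10 between irradiated and cocultured (-0.09), with 2, 1 and 1 at an unadjusted p under 0.05, all lower. Ubr2, an N-end rule ligase, had 104, 46.8 and 89.2 CPM in irradiated constructs, against 300.5, 148 and 258 CPM in normal constructs. Its irradiated libraries all lay below the normal ones (log2 -1.56 ± 0.44, edgeR adjusted p = 0.291). Huwe1, a large HECT ligase, had 115, 114 and 71.3 CPM in irradiated and 186.5, 192 and 215 CPM in normal constructs (log2 -0.98 ± 0.33, edgeR adjusted p = 0.459). Fbxo21 had 5.54, 0 and 0 CPM in irradiated and 36.6, 22.4 and 40.9 CPM in cocultured constructs (edgeR adjusted p = 0.493). Its values of 0 were in irradiated 2 and irradiated 3, the libraries with the fewest genes detected. The part of that in these values was not tested. Nedd4, a HECT ligase, averaged 864 CPM in cocultured and 578 CPM in normal constructs, and Ubr4 averaged 208 CPM in cocultured and 326 CPM in normal constructs (edgeR adjusted p = 1 for each).

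The FoxO regulators, with the insulin and IGF pathway among them, had 7, 11 and 9 positive values of 21 tested, with medians of -0.72, 0.07 and -0.09 in the same order of comparisons, and 3, 0 and 3 at an unadjusted p under 0.05. Igf1, the growth factor that holds the ligase genes down, had 251, 317 and 308 CPM in irradiated constructs, 128, 99.2 and 14.9 CPM in cocultured constructs and 3.08, 73.9 and 4.38 CPM in normal constructs. The irradiated libraries lay above all others, and the log2 difference from normal constructs was 3.43 ± 1.06 (edgeR adjusted p = 0.381). Its receptor Igf1r had 113, 118 and 169 CPM in irradiated, 236, 256 and 388 CPM in cocultured and 407, 197 and 237 CPM in normal constructs. All irradiated libraries were below the rest (log2 -1.07 ± 0.37 from normal, edgeR adjusted p = 0.478, and -1.14 ± 0.37 from cocultured, 0.493). Pik3r1, the regulatory subunit of PI3-kinase, averaged 240.0 CPM in irradiated, 95.03 CPM in cocultured and 87.9 CPM in normal constructs (edgeR adjusted p = 0.493 for irradiated against cocultured). Pdpk1, which phosphorylates AKT, averaged 56.6 CPM in cocultured and 88.3 CPM in normal constructs (edgeR adjusted p = 1).

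ATF4 targets, the amino acid stress genes to whose regulator Eif4ebp1 also answers, had positive values for 5 of 19 tested between irradiated and normal (median log2 -0.71), 12 between cocultured and normal (0.21) and 3 between irradiated and cocultured constructs (-0.71), with 2, 0 and 1 at an unadjusted p under 0.05. Atf4 itself had 193, 159 and 304 CPM in irradiated constructs, 220.3, 317 and 437 CPM in cocultured constructs and 442, 388 and 603 CPM in normal constructs. Irradiated libraries were below normal ones without overlap (log2 -1.13 ± 0.37, edgeR adjusted p = 0.419). Asns, asparagine synthetase, had 0.213, 1.41 and 0 CPM in irradiated constructs, 19.4, 15.4 and 54.9 CPM in cocultured constructs and 9.65, 10.2 and 12.04 CPM in normal constructs (edgeR adjusted p = 0.482 from normal and 0.493 from cocultured). Aldh18a1, an enzyme of proline synthesis, averaged 4.14 CPM in irradiated, 36.9 CPM in cocultured and 9.96 CPM in normal constructs. Irradiated 2 and irradiated 3 were the libraries with the fewest genes detected, and the part of that in these low values was not tested.

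Of the mTORC1 and cap-dependent translation genes 12, 12 and 9 of 21 had positive values, with medians of 0.10, 0.16 and -0.15, and 3, 0 and 1 at an unadjusted p under 0.05. Eif4ebp2, the paralogue of Eif4ebp1, had 14.1, 44.4 and 28.2 CPM in irradiated constructs, 110.5, 103 and 77.0 CPM in cocultured constructs and 85.6, 137 and 36.4 CPM in normal constructs. Like Eif4ebp1 it lay lower in all irradiated than in all cocultured libraries (log2 -1.74 ± 0.60, edgeR adjusted p = 0.493). It was named here for its small p in that same comparison. Deptor, an inhibitor bound to mTOR, averaged 268 CPM in irradiated, 157 CPM in cocultured and 127 CPM in normal constructs, and the initiation factor Eif4b 93.3 CPM in cocultured and 143 CPM in normal constructs (edgeR adjusted p = 0.482 for Deptor in irradiated against normal and 1 for Eif4b).

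**Figure D5:**
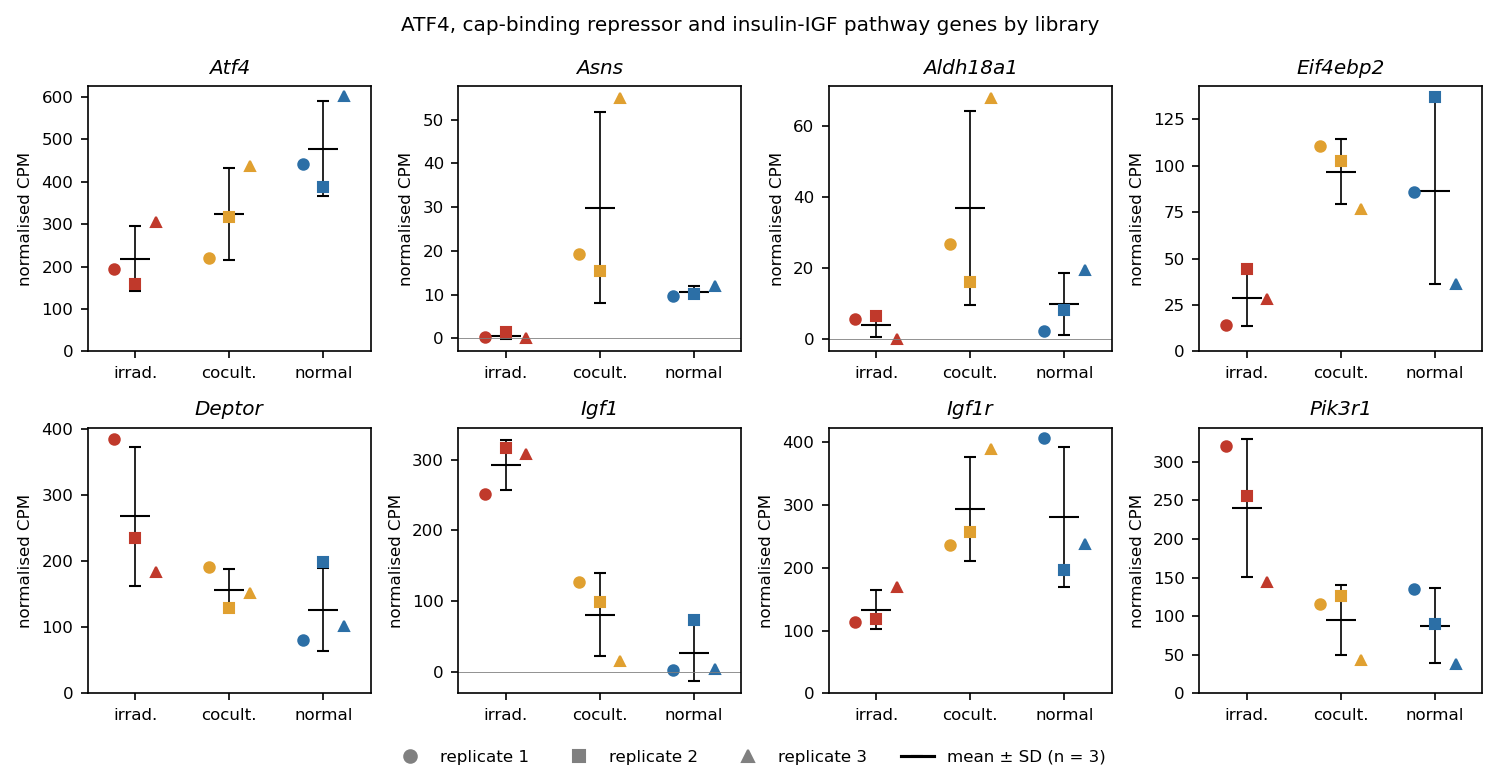
Normalised CPM (vertical axes) of 8 pathway genes in irradiated, cocultured and normal constructs, with a point for each library and the mean ± SD of 3 libraries. Irradiated libraries lie highest for Igf1 (251 to 317 CPM) and lowest for Igf1r and Asns, and none of the 8 passed after adjustment over all genes.

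Glucocorticoid response genes, the company of Klf15, had 5, 8 and 5 positive values of 16 tested, with medians of -0.34, 0.12 and -0.74, and 3, 3 and 5 at an unadjusted p under 0.05. Klf9, a relative of Klf15 that the glucocorticoid receptor induces, had 304, 116 and 208 CPM in irradiated and 517, 549 and 504 CPM in cocultured constructs (log2 -1.32 ± 0.36, edgeR adjusted p = 0.373). The metallothionein Mt2 averaged 3291 CPM in irradiated, 8358 CPM in cocultured and 4170 CPM in normal constructs. For Mt2 the cocultured libraries lay above the normal ones, while the irradiated libraries overlapped the normal ones. Cebpd had 124, 94.3 and 167 CPM in irradiated and 320.0, 456 and 187 CPM in normal constructs. Ddit4, an mTORC1 inhibitor, had 54.3, 20.8 and 129.5 CPM in irradiated and 280.6, 208.4 and 86.2 CPM in normal constructs. Its groups overlapped (edgeR adjusted p = 0.4825). Hsd11b1, which makes active glucocorticoid from its inert form, had 181, 181 and 169 CPM in cocultured and 48.7, 100.0 and 35.8 CPM in normal constructs (log2 1.52 ± 0.53, edgeR adjusted p = 1). Tsc22d3, known as GILZ, lay the other way at 21.2, 9.20 and 24.1 CPM in cocultured and 32.7, 50.7 and 86.2 CPM in normal constructs (log2 -1.64 ± 0.71, edgeR adjusted p = 1).

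Of 24 other FoxO targets 8, 15 and 6 had positive values, with medians of -0.21, 0.15 and -0.30, and 0, 1 and 2 at an unadjusted p under 0.05. The mitophagy receptor Bnip3 had 60.9, 107 and 156 CPM in irradiated, 224, 183 and 323 CPM in cocultured and 169, 202 and 147 CPM in normal constructs. The proteasome subunit Psma1 averaged 28.1 CPM in irradiated, 95.2 CPM in cocultured and 47.9 CPM in normal constructs, and irradiated libraries were below cocultured ones for both (edgeR adjusted p = 0.493 for each). The autophagy gene Becn1 averaged 38.9 CPM in irradiated and 79.8 CPM in normal constructs (edgeR adjusted p = 0.624), and the metallothionein Mt1 3904 CPM in cocultured and 2166 CPM in normal constructs (edgeR adjusted p = 1).

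Among the other calpain genes 7 of 13 were tested, of which 3, 3 and 4 had positive values, with medians of -0.17, -0.13 and 0.24, and 1, 0 and 1 at an unadjusted p under 0.05. Cast, calpastatin, had 219, 222 and 236 CPM in irradiated constructs, 295, 247 and 217 CPM in cocultured constructs and 364, 302 and 341 CPM in normal constructs. Its irradiated and its cocultured libraries all lay below the normal ones (log2 -0.57 ± 0.29, edgeR adjusted p = 0.514, and -0.41 ± 0.29, edgeR adjusted p = 1). Capns1, the shared small subunit, averaged 282 CPM in irradiated and 239 CPM in cocultured constructs. Capn6 had 6.81, 24.3 and 48.2 CPM in irradiated, 5.36, 38.7 and 0.226 CPM in cocultured and 11.1, 6.14 and 10.7 CPM in normal constructs. Its groups overlapped in each comparison. Capn15 had no count in irradiated 3 and cocultured 3.

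The genes whose profile over the 9 libraries was most like that of a member were found by the mean absolute difference of log2 CPM, each gene centred on its own mean, among 5977 tested genes of at least 20 CPM. For the 4 members of widest range these were Nudt16l1 (0.37), Dnm3os (0.38) and Stk25 (0.44) for Foxo1, Smtnl1 (0.98), Gpd1 (1.02) and Slc2a4 (1.06) for Capn3, then Snap29 (0.44), Glce (0.69) and Ccnq (0.77) for Fbxo30, and Zc3h14 (1.02), Pxk (1.04) and Nvl (1.11) for Klf15. Fbxo32 and Trim63 were added after their values were seen. Fbxo32 lay nearest to Stim1 (0.30), Dcaf6 (0.37) and Pde4d (0.38). Trim63 lay nearest to Limch1 (0.34), Ank1 (0.48) and Mef2c (0.48), a muscle transcription factor that is itself among the muscle identity markers. Between members the nearest pair was Eif4ebp1 and Capn2 (0.76), and Trim63 was nearer to Capn1 (1.07) and Fbxo32 (1.08) than to other members. The mean absolute deviation from the gene's own mean was 0.79 for Eif4ebp1, 0.57 for Capn2 and 1.09 for Trim63. A flat profile would thus lie about as near, and no shared course is read from these pairs. These are descriptions over libraries that share groups and make-up.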

How the data were processed

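RNA of 9 constructs was read as 3' ends. Per the labels' protocols, 100 ng of total RNA went into QuantSeq 3' FWD libraries, sequenced as single 75 bp reads. The tools STAR, HTSeq and FastQC, and GRCm39 and mm39 as builds, are named per the submitters' processing notes. Their versions, the annotation, the strand setting and the handling of reads in overlapping genes were not given in the sources used here. Reads in overlaps may therefore have been shared or left out. The authors deposited raw counts, whole numbers for each gene symbol with no normalization. Column names in the files differ from the labels in their numbers, and each file's sample was taken from the series record.

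The members and the gene lists were chosen with earlier results of these data known. Genes were tested with edgeR 4.0.16 (R 4.3.3): filterByExpr, TMM factors and 1 quasi-likelihood model of the 3 groups over all 9 libraries, with Benjamini-Hochberg adjustment over 11980 genes and a threshold of 0.05. Standard errors are the log2 fold change over the square root of F, and intervals use the model's degrees of freedom, both approximate. Log2 CPM used a prior count of 2. Alternatives were DESeq2 1.42.0, limma voom (3.58.1), other scalings and filters, the 6 libraries compared alone, a replicate block and omitted libraries. A limit for a count of 0 is 3 counts in that library and covers counting error only.

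Within groups, replicates differed by far more than sampling error (a chi-square of 35.4 to 297 for each gene on average), so none was treated as a duplicate. From each list the text names up to 2 tested genes a comparison with the smallest p and at least 10 CPM on average, and all 10 members whatever their result. Promoter sequences are RefSeq's, build GRCm38.p6.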

Additional observations from a re-analysis of the deposited data

How the results depend on the processing

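No member was called under any alternative in any comparison, except Trim63 (1 call) for irradiated against cocultured constructs when irradiated 2 and irradiated 3 were both left out, a choice made after seeing the data that leaves 1 irradiated library, assumed to vary like the other groups. Counts of all genes called moved more. For irradiated against normal constructs (7) there were 455 with DESeq2, 25 with limma voom, 130 without a filter, 0 with the 6 libraries alone, 23 with the replicate block, 20 without normal 3 and irradiated 1, 190 without irradiated 2 and irradiated 3, and between 6 and 147 with 1 library omitted, the highest without irradiated 1 (14, 13 and 17 without normal 2, irradiated 2 and irradiated 3). For cocultured against normal (0) there were 124 with DESeq2, 52 without a filter, 1 without normal 3 and irradiated 1 and 96 without irradiated 2 and irradiated 3, and 0 as each library was left out. For irradiated against cocultured (4) there were 529, 105 with limma voom, 9 with library totals, 153 without a filter, 0 with the 6 libraries alone, 12 with the replicate block, 21 without normal 3 and irradiated 1, 449 without irradiated 2 and irradiated 3, and between 1 and 97 with 1 library omitted (97, 11 and 13 without irradiated 1, 2 and 3, 8 and 2 without cocultured 1 and 3, and 1, 7 and 1 without normal 1, 2 and 3). The cause of these moves was not tested.

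Signs of members turned as follows, all without a call. With DESeq2 and with RLE factors Foxo3 in irradiated against normal was 0.072, and with library totals 0.39. Library totals moved the median of all genes by 0.35, 0.55 and -0.18 in the 3 comparisons, and gave 0.036 for Trim63, 0.64 for Klf15 and 0.60 for Capn3 in cocultured against normal and -0.46 for Fbxo32 in irradiated against cocultured. Limma voom gave -0.52 for Trim63 in irradiated against normal, 0.14 for Trim63 and -1.005 for Fbxo30 in cocultured against normal, and -1.36 for Fbxo32 and -0.66 for Trim63 in irradiated against cocultured. Without normal 3 and irradiated 1, cocultured against normal gave 0.9995 for Trim63, -0.064 for Fbxo30, 2.48 for Klf15, 0.13 for Capn1 and 0.55 for Capn3, and irradiated against cocultured gave -1.90 for Fbxo32 and -0.78 for Trim63.

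As each library was left out, irradiated against normal ranged from -1.69 to 2.19 for Trim63, -0.35 to 0.70 for Foxo1, -0.76 to 0.37 for Foxo3 and -0.92 to 3.87 for Klf15. Cocultured against normal ranged from -1.34 to 1.001 for Trim63, -0.92 to 1.16 for Fbxo30, -2.28 to 2.48 for Klf15, -1.83 to 0.13 for Capn1 and -1.07 to 0.55 for Capn3. Irradiated against cocultured ranged from -1.92 to 0.60 for Fbxo32, -0.79 to 1.73 for Trim63, -0.19 to 0.84 for Foxo3 and -0.55 to 3.31 for Klf15.

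Libraries with the same replicate number did not deviate together (correlations of their deviations from group means across genes -0.07 to 0.05). These correlations cannot show whether the numbers stand for shared dishes or runs. With the replicate block Klf15 was 0.50 in cocultured against normal and Fbxo32 -0.35 in irradiated against cocultured, Fbxo30 was 2.86 in irradiated against normal and 2.74 in irradiated against cocultured, and the block changed no member's call. Limma voom gave Foxo1 -3.52 in cocultured against normal and 3.67 in irradiated against cocultured. Removing symbols starting mt- or, added after seeing the data, all mitochondrially encoded genes, with Gm26917, changed no sign and no call of a member.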
